A study of Saccharomyces cerevisiae with 28 samples.

Results

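The nuclear tRNA genes comprise the 40 genes, of 982 named genes on the array, that the platform annotation and the gene table assign to a tRNA of the nuclear genome. They were chosen by this annotation, with no measured value in the rule, and the 24 mitochondrial tRNA genes were left out. Each of the 40 has 1 probe, printed 6 times on every array. The names are systematic (the YNC names) except for CDC65, HSX1, SUF3, SUF10, SUP11, SUP16, SUP61, TGA1, TRR4 and TRT2. All 40 were measured on all 28 arrays and all 40 entered the tests, with no filter on low values.

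A transfer RNA carries an amino acid to the ribosome and reads the codon for it. In budding yeast, RNA polymerase III transcribes the nuclear tRNA genes from promoter elements inside the gene. The precursor is trimmed at both ends, receives CCA at its 3' end and many base modifications, and some precursors carry an intron that a dedicated endonuclease and ligase remove rather than the spliceosome. Copies of one tRNA are scattered over the genome and can be identical in their mature part, so a probe for one gene may pick up RNA of others. The gene table lists 275 nuclear tRNA genes, and signal at a probe is uncertain as to which copy it came from.

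Splicing-specific spotted microarrays of budding yeast were used, each mutant being hybridised together with wild-type cells grown and collected in the same way. The csn12, csn9 and pci8 strains lack proteins of the COP9 signalosome, a regulator of ubiquitin ligases, and YPR045C (also named THP3) lacks a partner of Csn12. The ist3 and isy1 strains lack spliceosome-associated proteins. The tgs1 strain lacks the enzyme that hypermethylates the cap of snRNAs, and ynr004w (also named SWM2) a protein that binds Tgs1. Cultures of isy1, csn12, pci8, csn9, ist3 and YPR045C were collected in log phase at 30 °C. Those of tgs1 and ynr004w were collected at 0 min (30 °C) and after 10, 25 and 40 min at 16 °C. Each of these 14 conditions has 1 dye-swap pair of arrays, giving 28 arrays, with the mutant in Cy5 on one array and in Cy3 on the other. The wild type of isy1 is labelled as matched to it, and the others carry no such label. By the first number in the array names, csn12, YPR045C and ist3 went together, as did csn9 and pci8, and tgs1 and ynr004w. The isy1 arrays had a number of their own. It is called the array number here, and the labels do not say what it stands for. Between strains of different array numbers, strain and array number cannot be told apart. This holds for isy1 against all others and for csn12 against csn9 and pci8. The sources used here give neither strain background nor further alleles, nor whether the other strains shared 1 wild-type RNA. The labels do not say whether both arrays of a pair came from 1 culture, and p-values measure the spread between arrays or pairs, which may be technical.

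Values are log2 ratios, likely of mutant over wild type, since the mutant is channel 1 on every array. The direction is not stated, and intensities were not used here, so that signal over background, and with it the precision of a dim probe, is unknown. Ratios compare RNA from whole cultures, in which fewer cells holding an RNA and less of that RNA per cell cannot be told apart. Of the deleted genes only IST3, ISY1 and TGS1 had a named probe, and none stood far below 0 in its own deletion. IST3 was at 0.15 on the arrays labelled ist3, ISY1 was at -0.12 on those labelled isy1, and TGS1 was at -0.09 at 0 min and at -0.18, -0.33 and -0.32 at 10, 25 and 40 min on those labelled tgs1. Whether these probes lie in the deleted stretch is not given, so the deletions went unchecked and strains are named here as labelled. Mating-type genes also differed between mutant and wild type. The 4 alpha-cell markers measured had a median log2 ratio of 3.51 in YPR045C and 2.74 in ist3, and of -1.53 in tgs1 and -1.95 in ynr004w at 30 °C, while in csn12, csn9, pci8 and isy1 it lay between 0.06 and 0.29. The 2 of 6 a-cell markers measured had medians of -2.65 in YPR045C, -1.78 in ist3, 1.72 in tgs1 and 1.69 in ynr004w at 30 °C, -0.93 in csn12, -0.23 in csn9, -0.35 in pci8 and 0.45 in isy1. The part of mating type in the tRNA values was not tested.

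A pair of fits was made, and the members called in each comparison are counted in both. Array values are given with the mutant in Cy5 first and in Cy3 second. As deposited, the 2 arrays of a pair correlated between -0.54 and 0.23 over all genes, and between -0.23 and 0.65 without the mean of each dye orientation. In the pair fit, limma was applied to the 14 pair means, so that a group of 1 pair borrows its spread from the time points at 16 °C. In the array fit, limma was applied to the 28 single arrays with dye as a covariate, and the spread is then that between both arrays of a pair. A gene passed at a Benjamini-Hochberg adjusted p below 0.05 over all 982 genes. The array fit had a prior SD of 0.194 log2 units, against 0.065 in the pair fit, and called fewer genes. Each SE given is that of the pair fit, also where a p of the array fit stands beside it.

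The tRNA genes had their highest median in isy1, where 27 of 40 stood above wild type. In the pair fit 24 of 40 rose and 5 fell, against 42.2% of all genes called (20.8% higher and 21.4% lower), and in the array fit 16 rose and 1 fell, against 9.67% of all genes called. The median over the 40 was 0.31, and it was -0.01 over all 982 genes. YNCD0021C was at 1.95 and 2.10 on the 2 arrays labelled isy1. Its mean of 2.03 ± 0.06 (SE, 1 pair of arrays) is a 4.08-fold ratio, with a limma adjusted p of 1.26e-08 in the pair fit and 1.44e-07 in the array fit. YNCB0018W was at 1.35 and 1.59, and SUP16, a serine tRNA gene known for its suppressor alleles, at 1.59 and 1.10. Both arrays of each of these 3 genes lay above 1, in either dye orientation.

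A further 8 tRNA genes were close to 2-fold higher in isy1. YNCD0013C, YNCG0009C and YNCE0023W had log2 ratios of 1.11 each, YNCC0005W 1.08, YNCL0001W 0.95, CDC65, a glutamine tRNA gene, 0.92, YNCB0007W 0.90 and YNCF0009C 0.88. All 8 passed in both fits with both arrays above 0.5. The remaining members that rose in both fits were YNCB0004W, YNCB0013W, YNCA0006C, SUP11, a tyrosine tRNA gene with an intron, and YNCB0002W, with log2 ratios of 0.55 to 0.75. Another 8 genes rose in the pair fit alone, among them TRR4, an arginine tRNA gene, at 0.40 and TGA1, an alanine tRNA gene, at 0.23. TRR4 was at 0.74 on one array and 0.05 on the other.

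The members that fell in isy1 were few. YNCB0005C was at -0.61 and -0.56, with a mean of -0.58 ± 0.06 (SE) and limma adjusted p of 5.91e-05 in the pair fit and 0.0496 in the array fit. YNCJ0029W at -0.41, YNCC0009C at -0.30, YNCC0008W at -0.25 and SUF3, a glycine tRNA gene, at -0.18 fell in the pair fit alone. SUF3 had opposite signs on the 2 arrays. The spots of YNCJ0029W also scattered more than most, with a median SD over its spots of 0.41, against 0.08 for YNCD0021C.

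**Figure D1:**
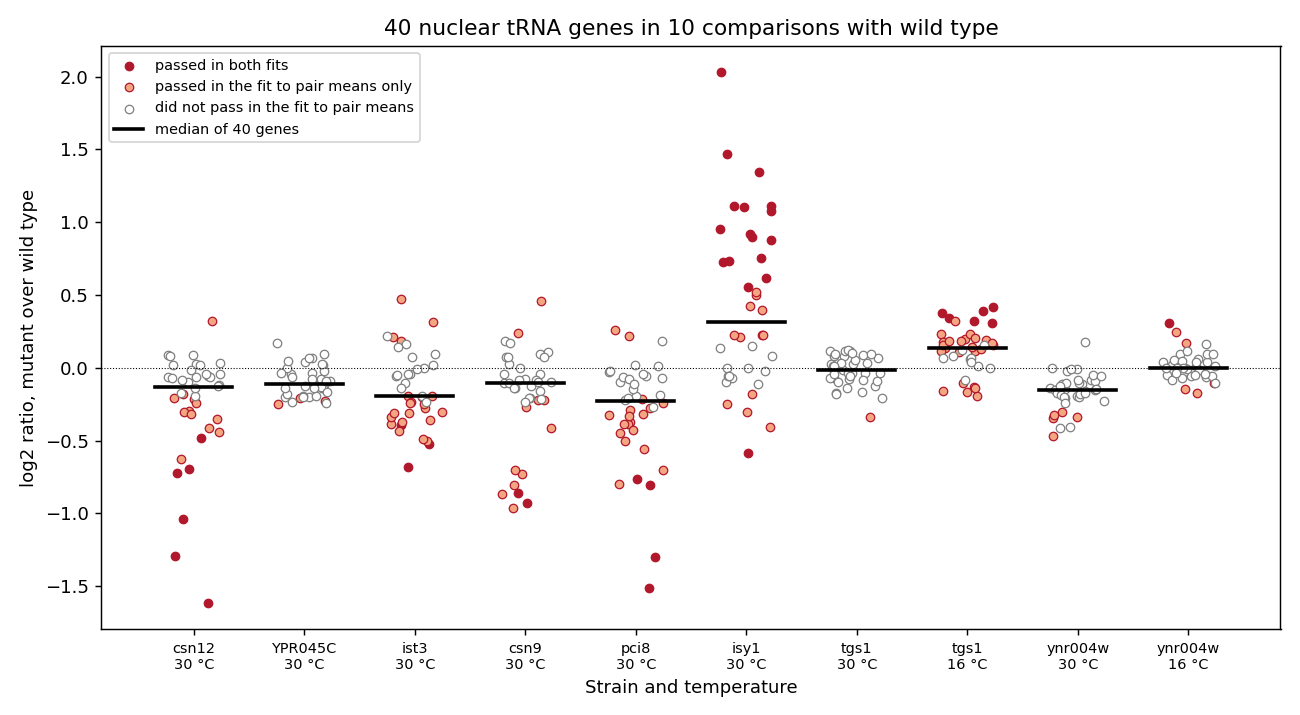
Log2 ratio of mutant over wild type (vertical axis) of each of the 40 nuclear tRNA genes in 10 strain and temperature groups (horizontal axis), as the mean of 1 pair of arrays, or of 3 pairs at 16 °C. Filled points passed in both fits, pale points in the pair fit only, open points did not pass in the pair fit, and bars mark the median of the 40, which is 0.31 in isy1 and between -0.23 and 0.14 elsewhere.

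In csn12 nearly all tRNA genes that passed were lower than in wild type. The pair fit called 17 lower and 1 higher, against 36.8% of all genes called (18.8% lower and 17.9% higher), and in the array fit 6 fell and none rose, against 4.68% of all genes called. The median was -0.13. YNCB0018W was at -1.98 and -1.25 on the 2 arrays, YNCD0021C at -1.57 and -1.02, and SUP11 at -1.46 and -0.61. All 6 arrays lay below -0.5, and the limma adjusted p was at most 0.00128 in either fit for each of the 3. YNCB0015W (-0.73), TGA1 (-0.70) and YNCE0023W (-0.48) also fell in both fits. The single member that rose, SUP61, a serine tRNA gene with an intron, was at 0.44 and 0.20, and did not pass in the array fit (limma adjusted p = 0.266). Of the 17 that fell in the pair fit, 9 had both arrays below 0. TRR4 at 0.35 and -0.84, and SUF10, a proline tRNA gene, at 0.94 and -1.36 are examples where the 2 arrays went opposite ways.

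YNCB0018W and YNCD0021C also led in pci8, another signalosome deletion. Of the members, 20 fell and 2 rose in the pair fit, against 32% of all genes called (14.6% lower and 17.4% higher). In the array fit 4 fell and none rose, of 10 genes called in all (1.02%). YNCB0018W was at -1.27 and -1.76 and YNCD0021C at -1.13 and -1.47. Their means were -1.51 ± 0.11 and -1.30 ± 0.06 (SE of the pair fit), with a limma adjusted p of 0.00035 for both in the array fit. YNCA0006C at -0.74 and -0.88, and SUP11 at -0.81 and -0.72, completed the 4. TRR4 at -0.80 and YNCD0013C at -0.70 fell in the pair fit alone, with all arrays below -0.5. All 22 members that passed in the pair fit had 1 sign on both arrays. Those that rose, YNCJ0029W (0.26) and YNCB0005C (0.22), were also the lowest members in isy1.

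In csn9, 11 members fell and 2 rose in the pair fit, against 21.9% of all genes called (11.1% lower and 10.8% higher). The array fit called 3 genes in all (0.305%), and 2 of the 3 were tRNA genes, YNCD0021C and SUP16. YNCD0021C was at -1.18 and -0.69, with a mean of -0.93 ± 0.06 (SE of the pair fit). Its limma adjusted p was 0.0137 in the array fit. SUP16 was at -1.16 and -0.57, with a mean of -0.86 ± 0.10 (SE of the pair fit). Its limma adjusted p was 0.00668 in the array fit. TRR4 (-0.96), YNCB0018W (-0.87), YNCD0013C (-0.81), SUP11 (-0.73) and YNCA0006C (-0.70) fell in the pair fit and had limma adjusted p of 0.067 to 0.0756 in the array fit. YNCB0005C rose in the pair fit, at 0.49 and 0.43. The 2 csn9 arrays correlated at -0.23 over all genes without the dye means, against 0.65 for isy1 and 0.28 for csn12. Wherever 1 array of a pair is left out here, the other was corrected by the mean effect of dye in the other pairs. It then stood in for the pair mean, with the spread still borrowed from the time points at 16 °C. Such counts and values rest on 1 array. The calls in csn9 depended on which array was kept. Without the Cy5 array the pair fit called 16 members higher and 8 lower, against 56.8% of all genes called, so that the majority direction turned. Without the Cy3 array it called 4 higher and 23 lower, against 68.5% of all genes called.

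**Figure D2:**
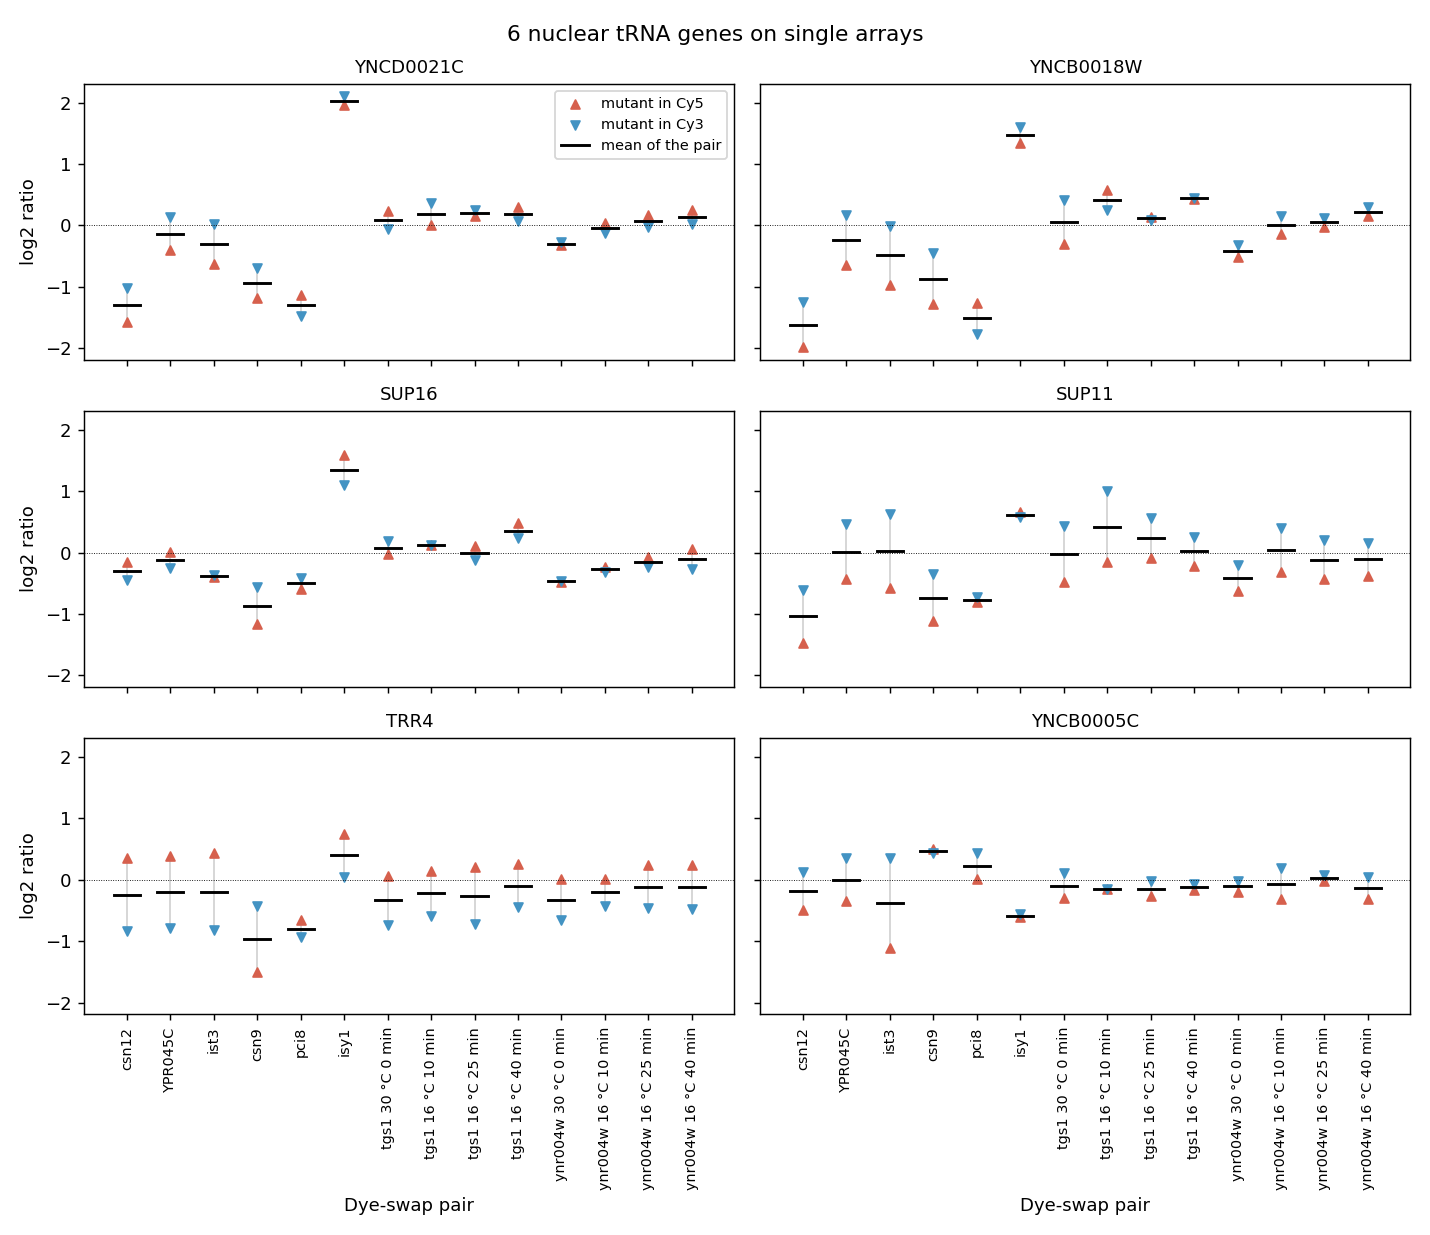
Log2 ratios of YNCD0021C, YNCB0018W, SUP16, SUP11, TRR4 and YNCB0005C (1 panel each, vertical axis) on the 2 arrays of each of the 14 pairs (horizontal axis), with triangles for single arrays and a bar for the pair mean. YNCD0021C and YNCB0018W lie above 1 on both isy1 arrays and below -1 on both arrays of csn12 and of pci8, while TRR4 has opposite signs on the 2 arrays of most pairs.

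The arrays labelled ist3 had 20 members lower and 4 higher in the pair fit, against 56.4% of all genes called (29.7% lower and 26.7% higher), so most genes on the array passed there. In the array fit 3 fell, against 7.74% of all genes called. YNCB0015W was at -0.42 and -0.94, YNCF0009C at -0.44 and -0.61, and YNCE0023W at -0.29 and -0.50. YNCB0018W was at -0.97 and 0.00, and YNCD0021C at -0.63 and 0.02. Neither of these 2 passed in the array fit, and only the array with the mutant in Cy5 was low. HSX1, an arginine tRNA gene, was the highest at 0.47, from arrays at 1.03 and -0.08.

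In YPR045C few tRNA genes passed. There 3 fell and none rose in the pair fit, against 18.9% of all genes called, and the array fit called none of the 40 and 10 genes in all (1.02%). At an unadjusted p below 0.05 the pair fit counted 13 members (32.5%), against 34.8% of all genes. YNCG0027W (-0.25), YNCB0015W (-0.23) and YNCF0009C (-0.21) were the 3, and the whole set ranged between -0.25 and 0.17. Only 7 of 40 members had 1 sign on both arrays. Without the Cy5 array the pair fit called 4 members higher and 14 lower, against 50.7% of all genes called. Without the Cy3 array it called 6 higher and 9 lower, against 40.8% of all genes called. The members' shares there, 45% and 37.5%, were below those of all genes. The time points at 16 °C set the spread of the pair fit. Of the 40, it called 1 without the 25 min pair of tgs1 and 6 without its 40 min pair. It called none without the 40 min pair of ynr004w. All-gene shares called there were 16.8%, 23.5% and 16%, above the 2.5%, 15% and 0% of the members.

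**Figure D3:**
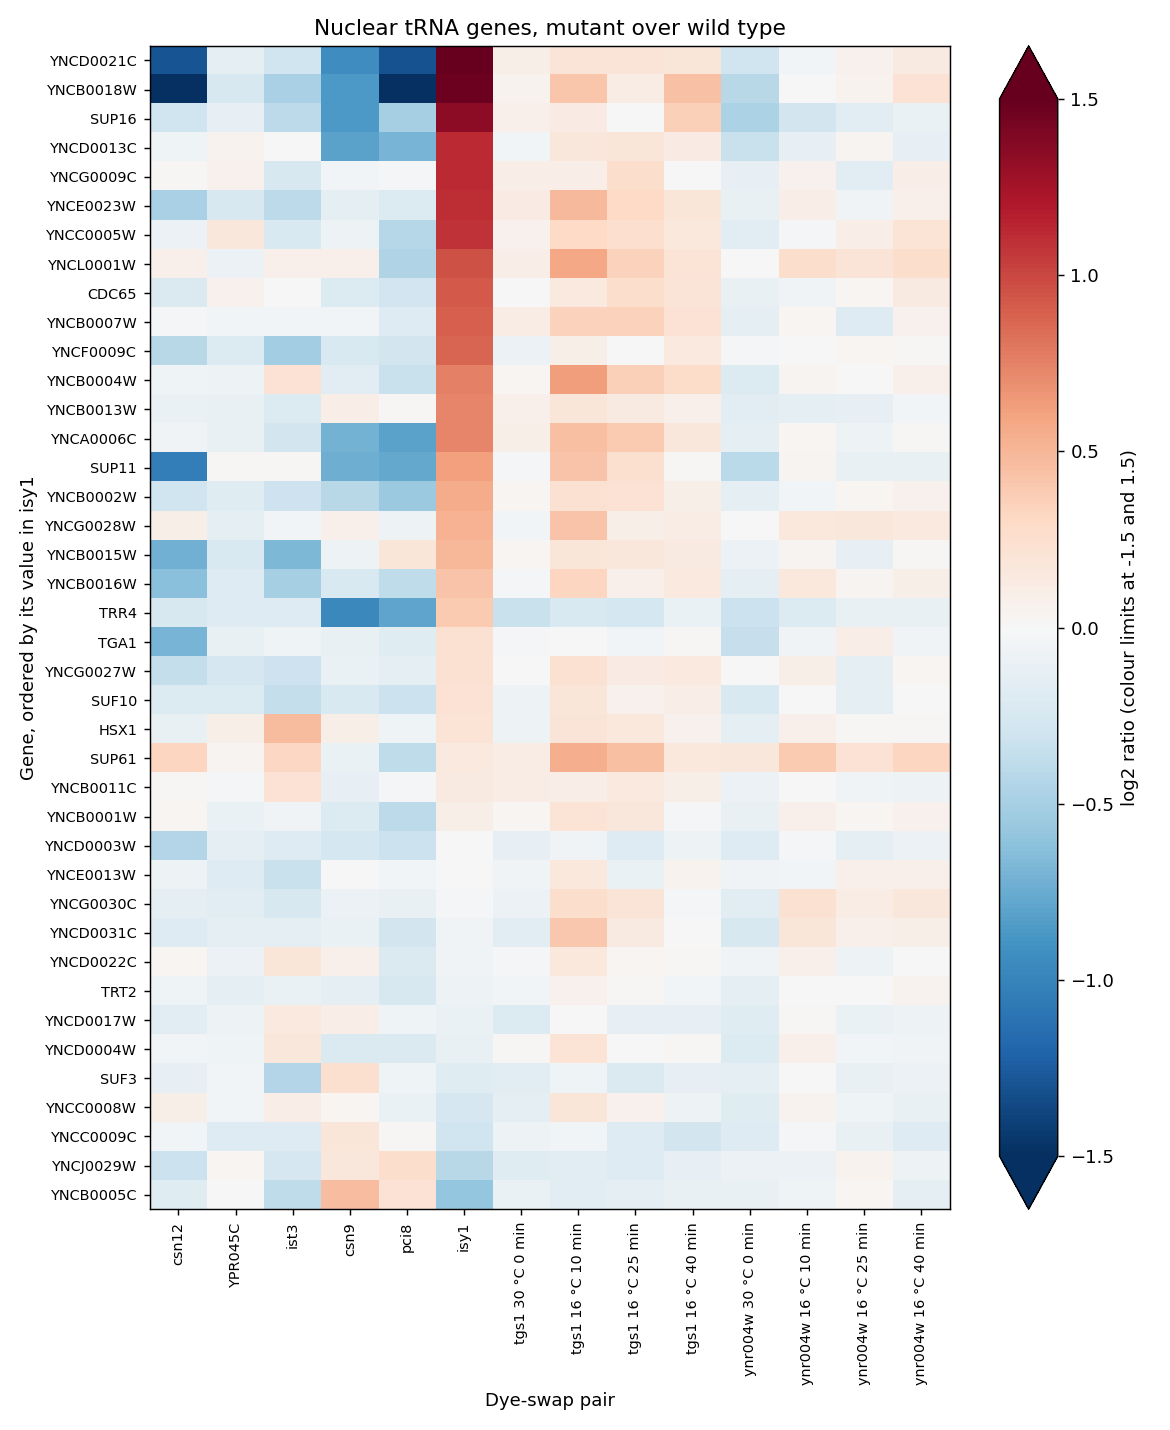
Log2 ratio of mutant over wild type for the 40 nuclear tRNA genes (rows, ordered by their value in isy1) in the 14 dye-swap pairs (columns), with red above and blue below 0 and colour limits at -1.5 and 1.5. The isy1 column is red over its upper rows, the csn12, csn9 and pci8 columns are blue at YNCD0021C, YNCB0018W and SUP11, and YNCB0005C and YNCJ0029W at the bottom are blue in isy1.

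The isy1 and csn12 ratios were then set against each other, across 2 array numbers and 2 labels of wild type. By the pair fit 25 members were higher in isy1 than in csn12 and 2 were lower, against 44.6% of all genes called (22.6% higher and 22% lower). In the array fit 19 were higher and none lower, against 9.78% of all genes called. The difference was 3.32 ± 0.09 (SE) for YNCD0021C, which was at 2.03 in isy1 and -1.29 in csn12. It was 3.09 ± 0.15 for YNCB0018W, at 1.47 in isy1 and -1.62 in csn12. SUP11 (1.65), SUP16 (1.64) and YNCE0023W (1.59) followed, and all 5 passed in both fits. YNCB0005C (-0.40) and YNCC0008W (-0.34) were lower in the pair fit alone.

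**Figure D4:**
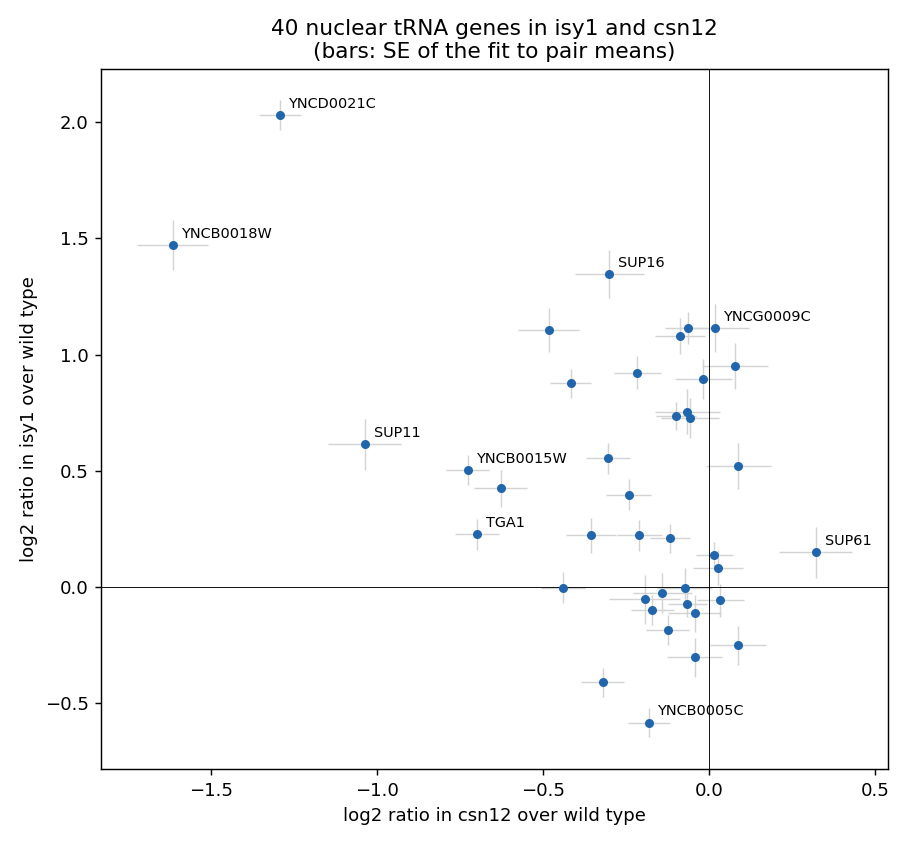
Log2 ratio in isy1 (vertical axis) and in csn12 (horizontal axis), both over wild type, of the 40 nuclear tRNA genes, with bars for the SE of the pair fit. YNCD0021C (2.03 and -1.29) and YNCB0018W (1.47 and -1.62) lie at the upper left, and YNCB0005C is the lowest point, at -0.58 in isy1.

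Csn12 and Thp3 are known to act together, and their deletions were set against each other. In the pair fit 7 members were lower in csn12 than in YPR045C and none higher, against 14.1% of all genes called (7.23% lower and 6.82% higher), and in the array fit 3 were lower, against 1.73% of all genes called. YNCB0018W was at -1.62 in csn12 and -0.24 in YPR045C, a difference of -1.38 ± 0.15 (SE of the pair fit). Its limma adjusted p was 0.0149 in the array fit. YNCD0021C differed by -1.16 ± 0.09 and SUP11 by -1.05 ± 0.15, with limma adjusted p of 0.0129 and 0.0232 in that fit. TGA1 (-0.59), YNCB0015W (-0.50), YNCB0016W (-0.43) and YNCJ0029W (-0.35) passed in the pair fit alone. The alpha-cell markers differed between these 2 strains as well, by a median of -3.12. With 1 array left out, members were called in both directions. The pair fit called 2 higher and 17 lower without the Cy5 array of csn12, 7 higher and 9 lower without its Cy3 array, 4 higher and 10 lower without the Cy5 array of YPR045C, and 2 higher and 15 lower without its Cy3 array. All-gene shares called there were 37.2%, 28.1%, 33.4% and 37.4%.

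At 16 °C 32 of 40 tRNA genes stood above wild type in tgs1, and none of them by more than 0.42. Over the 3 time points, 24 members rose and 6 fell in the pair fit, against 46.1% of all genes called (22.8% higher and 23.3% lower), and 6 rose in the array fit, against 9.98% of all genes called. The median was 0.14. YNCB0004W had pair means of 0.62, 0.35 and 0.27 at 10, 25 and 40 min, with a mean of 0.42 ± 0.06 (SE, n = 3 pairs) and a limma adjusted p of 0.00034 in the pair fit and 0.00045 in the array fit. SUP61 was at 0.54, 0.46 and 0.16, and YNCL0001W at 0.58, 0.35 and 0.20. YNCA0006C (0.34), YNCE0023W (0.32) and YNCB0007W (0.31) also passed in both fits. All 6 were highest at 10 min or level between 10 and 25 min. Of the 24 that rose, 7 had 1 sign on all 6 arrays. TRR4 was the lowest at -0.19, with opposite signs on the 2 arrays of every pair. Without the 10 min pair the pair fit called 19 members, against 32.7% of all genes called, and without the 25 min pair 18, against 29.1%.

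In ynr004w at 16 °C few members passed. In the pair fit 3 rose and 3 fell, against 32.8% of all genes called (16.8% higher and 16% lower), and in the array fit 1 rose, against 6.21% of all genes called. That gene was SUP61, at 0.39, 0.21 and 0.33 at 10, 25 and 40 min. Its mean was 0.31 ± 0.06 (SE of the pair fit, n = 3 pairs), with a limma adjusted p of 0.0218 in the array fit. YNCL0001W (0.24) and YNCG0030C (0.17) rose, and SUP16 (-0.18), TRR4 (-0.14) and YNCB0013W (-0.10) fell, in the pair fit alone. Without the 10, 25 or 40 min pair the pair fit called 3, 2 and 1 members, against 22.9%, 15.1% and 17.3% of all genes.

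At 30 °C, before the shift, 1 member, TRR4, fell in tgs1 (-0.34, with arrays at 0.07 and -0.74), against 5.7% of all genes called (2.65% higher and 3.05% lower). In ynr004w 5 fell and none rose, against 5.91% of all genes called (2.34% higher and 3.56% lower). These were SUP16 (-0.47), TGA1 (-0.34), YNCD0013C (-0.34), TRR4 (-0.33) and YNCD0021C (-0.30). None of these passed in the array fit, which called 9 genes in all (0.916%) in each strain. In ynr004w 38 of the 40 values were below 0, with a median of -0.15, and in tgs1 21 were, with a median of -0.02. In tgs1 the pair fit called 6 members higher and 4 lower without the Cy5 array, against 49.8% of all genes called, and 2 higher and 11 lower without the Cy3 array, against 31.9%. In ynr004w it called 17 lower without the Cy5 array, against 26.1% of all genes called, and 10 lower without the Cy3 array, against 15.9%, with none higher. It called 3 in ynr004w without the 40 min pair of that strain, against 2.75% of all genes called. The 2 tgs1 arrays at 0 min correlated at -0.22 over all genes without the dye means.

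The change with temperature was tested within each strain, as the ratio at 16 °C minus the ratio at 30 °C. No gene of 982 (0%) passed in either strain or fit, so no tRNA gene did. The pair fit counted 10 members (25%) at an unadjusted p below 0.05 in tgs1, against 18.3% of all genes, and 14 (35%) in ynr004w, against 12% of all genes. The difference was above 0 for 37 of 40 members in tgs1, with a median of 0.15, and for all 40 in ynr004w, with a median of 0.16. Over all 982 genes the medians were -0.01 and 0.00. Each of these counts rests on 1 pair at 30 °C, which all 40 values share. YNCB0004W (0.38), YNCD0031C (0.35) and YNCL0001W (0.28) were highest in tgs1, and YNCB0018W (0.50), YNCD0031C (0.36) and YNCD0021C (0.35) in ynr004w. The lowest were YNCC0009C (-0.09), YNCB0005C (-0.04) and YNCB0011C (0.00) in tgs1, and YNCG0027W (0.01), YNCF0009C (0.03) and YNCB0011C (0.04) in ynr004w. In tgs1, 9 members were called higher and 4 lower without the Cy5 array at 30 °C, against 40.8% of all genes called, and 17 higher and 2 lower without the Cy3 array, against 21.7%. Without the 40 min pair of tgs1 4 were called higher, against 2.65% of all genes called. In ynr004w 5 were called higher without the Cy5 array at 30 °C, against 4.79% of all genes called, and 1 without the Cy3 array, against 1.83%.

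At 16 °C, tgs1 was set against ynr004w directly. No member passed in either fit, against 0.509% of all genes in the pair fit and 0% in the array fit, with 18 members (45%) at an unadjusted p below 0.05 in the pair fit, against 14.6% of all genes. YNCB0004W (0.38 ± 0.08, SE), YNCA0006C (0.35 ± 0.07) and YNCB0007W (0.34 ± 0.07) had the highest differences, each with a limma adjusted p of 0.0585. YNCJ0029W (-0.12), YNCB0005C (-0.08) and SUF3 (-0.07) had the lowest. With the median of the spots 5 members passed, of 15 genes called in all. Without the 40 min pair of tgs1 7 members did, against 5.09% of all genes. Whether the change with temperature differed between the strains was tested as an interaction, and the lowest limma adjusted p over the 40 was 0.763. At an unadjusted p below 0.05 there were 2 members (5%), against 5.91% of all genes.

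**Figure D5:**
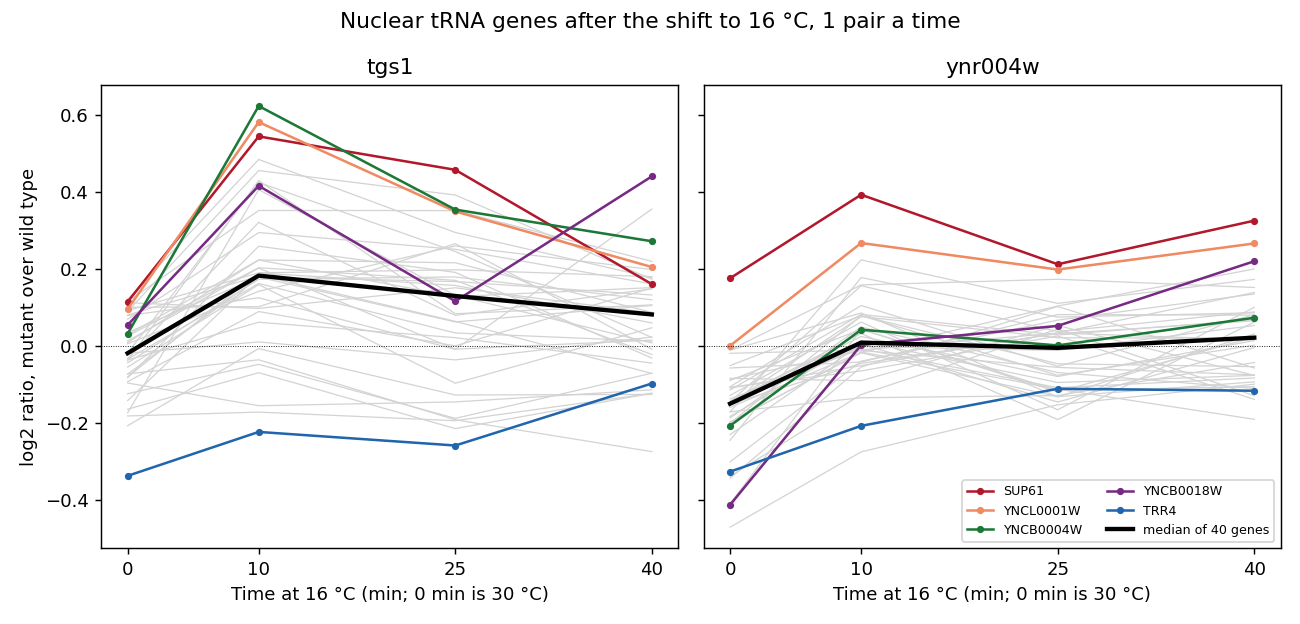
Log2 ratio of mutant over wild type (vertical axis) against time at 16 °C in min (horizontal axis, 0 min being 30 °C) for tgs1 (left) and ynr004w (right), 1 pair of arrays a time, with grey lines for the 40 nuclear tRNA genes, coloured lines for 5 of them and a black line for their median. The median was -0.02, 0.18, 0.13 and 0.08 in tgs1, and -0.15, 0.01, 0.00 and 0.02 in ynr004w.

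Across all conditions, the members with the widest range were set apart by isy1 and by the signalosome deletions. YNCD0021C had log2 ratios of 2.03 in isy1, -1.29 in csn12, -1.30 in pci8, -0.93 in csn9, -0.30 in ist3 and -0.13 in YPR045C. At 0, 10, 25 and 40 min its ratios were 0.09, 0.19, 0.20 and 0.18 in tgs1, and -0.30, -0.04, 0.07 and 0.13 in ynr004w. It was high in isy1, low in csn12, pci8 and csn9, and between -0.30 and 0.20 in the other pairs. SUP16 was at 1.35 in isy1, -0.30 in csn12, -0.50 in pci8, -0.86 in csn9, -0.39 in ist3 and -0.13 in YPR045C. Its low point was thus in csn9 rather than in csn12, unlike YNCB0018W, which was at -1.62 in csn12 and -0.87 in csn9. SUP61 differed from all 3, at 0.15 in isy1, 0.32 in csn12, -0.38 in pci8, -0.10 in csn9, 0.32 in ist3 and 0.04 in YPR045C, and its highest pair means were those of tgs1 at 10 and 25 min.

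The members differed in how far they moved. Over the 14 pairs, YNCD0021C spanned 3.33 log2 units and YNCB0018W 3.09, SUP16 2.21 and YNCD0013C 1.92, while TRT2, a threonine tRNA gene, spanned 0.31, YNCB0011C 0.34 and YNCD0017W 0.35. TRR4 passed in 9 of the 10 comparisons with wild type in the pair fit, and in none in the array fit. Its dye effect, the mean distance of the Cy5 array above the midpoint of its pair, was 0.33. YNCD0021C and SUP16 passed in 7 comparisons, and YNCD0004W and YNCD0017W in none. Over the 40 genes this dye effect had an SD of 0.27, beside 0.28 over the genes that are not tRNA genes.

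Pairs of members followed each other across conditions to very different degrees. Over the 14 pair means, which share the arrays' centring and perhaps wild-type RNA, YNCD0021C correlated with YNCB0018W at 0.96 (Pearson, Spearman 0.96), and at 0.97 without the isy1 and pci8 pairs. With CDC65 it correlated at 0.96, and at 0.86 without those 2 pairs. The gene outside the set most like YNCD0021C was GCN4, the activator of amino acid synthesis genes, at 0.95, and at 0.89 without those 2 pairs. YNCB0005C and YNCJ0029W, which stood apart from most members, correlated with each other at 0.90, and at 0.89 without the csn9 and isy1 pairs. These values describe the arrays and were not tested.

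Neighbours on the chromosome were compared as well. The gene table places YNCB0004W beside YNCB0005C, YNCB0015W beside YNCB0016W and YNCC0008W beside YNCC0009C. Over the 14 pairs they correlated at -0.71, 0.82 and 0.42 (Spearman -0.73, 0.67 and 0.38), and at -0.62, 0.60 and 0.21 without the 2 pairs farthest from the median. YNCB0004W was at 0.75 in isy1 and YNCB0005C at -0.58, while YNCB0015W and YNCB0016W were at 0.50 and 0.42 there, and at -0.73 and -0.63 in csn12.

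The genes also differ in length, from 71 to 133 nt with any intron, and members of each length class passed. In isy1, 16 of the 26 genes of 71 to 74 nt rose in the pair fit, against 20.8% of all genes. So did 3 of the 4 of 82 to 84 nt and 5 of the 10 of 89 to 133 nt. In the array fit 9, 2 and 5 rose, against 6.21% of all genes. In csn12, 11 of 26, 1 of 4 and 5 of 10 fell in the pair fit, against 18.8% of all genes. In the array fit 5, 0 and 1 fell there, against 3.05%. The longest, YNCD0017W at 133 nt, passed in no comparison, whereas YNCG0009C at 106 nt and YNCL0001W at 103 nt were at 1.11 and 0.95 in isy1.

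The mitochondrial tRNA genes, which are transcribed in the organelle by another polymerase, were measured on the same arrays. In isy1 8 of 24 rose and 7 fell in the pair fit (62.5%, against 42.2% of all genes). None passed in the array fit, and the median was 0.05. In csn12 1 rose and 6 fell (29.2%, against 36.8% of all genes), and 1 fell in the array fit, with a median of -0.10. In pci8 1 rose and 13 fell (58.3%, against 32%), and the median was -0.28, near the -0.23 of the nuclear genes. In tgs1 at 16 °C 13 rose and 7 fell (83.3%, against 46.1%), 5 of them rising in the array fit. The median there was 0.14, as in the nuclear genes. In csn9 3 rose and 9 fell (50%, against 21.9%), with a median of -0.17, against -0.11 for the nuclear genes. In ist3 5 rose and 8 fell (54.2%, against 56.4%), with a median of -0.10, against -0.19 for the nuclear genes. In YPR045C 7 fell (29.2%, against 18.9%), with a median of -0.11 in both sets. None passed in the array fit in pci8, csn9, ist3 or YPR045C. The difference between the 2 sets was not tested.

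Genes of the tRNA pathway were partly on the array, with 5 of 17 RNA polymerase III subunits, 5 of 10 polymerase III factors, 10 of 13 end-processing genes, 1 of 6 splicing genes, 6 of 8 export genes, 8 of 46 modification genes, 7 of 9 surveillance and decay genes, and none of 23 aminoacyl-tRNA synthetases measured. In isy1, where 6.21% of all genes rose in the array fit, 2 of 6 export genes rose in both fits, MSN5, an exportin that carries tRNAs and proteins, at 0.88 and GSP1, the yeast Ran GTPase, at 0.60. RPR2, a protein subunit of RNase P, which trims the 5' end, rose there to 0.39, and KTI12, needed for wobble uridine modification, to 0.35, both in both fits. MTR10, an import factor that also acts in tRNA transport, fell (-0.21), with MTR4 (-0.32), the helicase of nuclear RNA surveillance, both in the pair fit alone. Of the subunits of RNA polymerase III, RPC34 rose (0.20), and RPC19 (-0.26) and RPO26 (-0.29) fell, in the pair fit alone, and none of the 5 factors passed.

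In csn12, where 18.8% of all genes fell and 17.9% rose in the pair fit, 3 of 5 polymerase III subunits fell there, RPC17 (-0.30), RPO26 (-0.23) and RPC82 (-0.18). MAF1, the repressor of RNA polymerase III, fell there as well (-0.27) and in pci8 (-0.22). End-processing genes went both ways in csn12, with 4 higher and 2 lower of 10. In pci8 the RNase P and MRP subunits POP5 and POP7 rose to 0.38 each and POP4 to 0.29, and POP8 fell to -0.20. ELP4, a subunit of the Elongator complex that modifies wobble uridines, fell in csn12 (-0.21), csn9 (-0.34), pci8 (-0.39) and ist3 (-0.36), and TAD2, a subunit of the tRNA adenosine deaminase, fell in the same 4 strains (-0.24, -0.29, -0.38 and -0.20) and rose in isy1 (0.26). Apart from ELP4 in ist3, none of these calls in csn12, csn9, pci8, ist3 and isy1 passed in the array fit.

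In ist3, RRP6, the nuclear exosome nuclease, rose to 0.69 and MTR4 to 0.46, MTR4 in both fits, and POP6, of RNase P and MRP, fell to -0.51 in both fits. At 16 °C MET22, whose loss is known to slow the decay of unstable tRNAs, fell to -0.31 in tgs1 and -0.28 in ynr004w, and GSP1 rose to 0.40 and 0.30, all in both fits. POP6 fell to -0.28 in tgs1 in both fits. XRN1, a 5' exonuclease of tRNA and mRNA decay, rose in the pair fit in csn9 (0.34), isy1 (0.28), pci8 (0.26), ist3 (0.23), and at 16 °C in tgs1 (0.16) and ynr004w (0.20). In YPR045C, RRP6 rose to 0.42 and AIR2, of the polyadenylating surveillance complex, fell to -0.33 in the pair fit.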

How the data were processed

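Total RNA of each mutant and its wild type was copied into cDNA with aminoallyl-dUTP, labelled with Cy5 and Cy3 and hybridised together, per the labels' protocols. The deposited table holds 1 log ratio per spot, read here as log2. The sources used here give neither its log base, direction, background correction and normalization nor the RNA form a probe follows. Each array was centred on its median, and spots, dye-swap arrays and probes of a gene were averaged in that order. Then limma 3.58.1 in R 4.3.3 was fitted to the 14 pair means in 10 groups, with 4 residual degrees of freedom, and p-values were adjusted over 982 genes. The array fit used the 28 arrays, with a term for each pair and for dye. The scripts were checked on simulated data.

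The members and lists were chosen with earlier results of these data known. Named in each comparison were up to 6 highest and 6 lowest members past the threshold with 1 sign on every array, the 3 highest and 3 lowest where none passed, members past it in 5 or more comparisons, and up to 4 pathway genes per list. Other members named here, those with arrays of opposite sign among them, were chosen after their values were seen. The files give no amino acid or anticodon for the YNC names, so the members were not grouped by amino acid, and the clause of the naming rule on anticodons was not applied. Deviations of tgs1 and ynr004w at the same time correlated at 0.37, -0.05 and 0.18 at 10, 25 and 40 min, so the time points were not treated as pairs. The platform names no genome build, and no coordinates are given.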

Additional observations from a re-analysis of the deposited data

How the results depend on the processing

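The array fit is the one given above with its all-gene shares. It called 6 members in csn12, 0 in YPR045C, 3 in ist3, 2 in csn9, 4 in pci8 and 17 in isy1. At 30 °C it called 0 in tgs1 and 0 in ynr004w, and at 16 °C 6 in tgs1 and 1 in ynr004w. For csn12 against YPR045C it called 3. Of 127 named values, 42 kept direction and call there, 85 lost the call and 0 changed direction. YPR045C had 5 with the median of the spots, beside 193 of all genes, and 0 with both temperatures in one group, beside 137. Scaling the arrays to one spread gave 22 in csn9, beside 468 of all genes, and 0 in tgs1 at 30 °C, beside 18. With both temperatures in one group tgs1 had 22, beside 414. For tgs1 against ynr004w at 16 °C, with 0 called, scaling gave 2 and the median of the spots 5. The median over probes gave 3 and the time point as a replicate block 3. Beside these, 16, 15, 11 and 13 of all genes were called. SUF10 in csn12 turned to 0.0015 when the arrays were scaled.

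With 1 time point at 16 °C left out, the count ranged over 15 to 18 in csn12, with 33.2% to 41.1% of all genes called. It was 0 to 6 in YPR045C (16% to 23.5% of all genes) and 22 to 27 in ist3 (54.2% to 59.3%). It was 12 to 16 in csn9 (18.6% to 26.8%), 21 to 26 in pci8 (28% to 35.3%) and 27 to 29 in isy1 (39.7% to 44.4%). It was 1 throughout in tgs1 (2.85% to 8.15% of all genes) and 3 to 7 in ynr004w (2.75% to 8.35%) at 30 °C. At 16 °C it was 18 to 28 in tgs1 (29.1% to 44.1%) and 1 to 7 in ynr004w (15.1% to 36.7%). For 16 °C against 30 °C it was 0 to 4 in tgs1 and 0 throughout in ynr004w. For tgs1 against ynr004w it was 0 to 7, for csn12 against YPR045C 6 to 7, and for isy1 against csn12 26 to 27. Counting runs without 1 array as well, 16 °C against 30 °C had 0 to 19 in tgs1 and 0 to 5 in ynr004w. Over those same runs csn12 against YPR045C had 6 to 19, and isy1 against csn12 had 26 to 34. Values that changed sign when 1 array was left out ranged over -1.20 to 0.56 for YNCJ0029W, -0.77 to 0.35 for SUF10, -0.53 to 0.047 for TRR4 and -1.11 to 0.23 for YNCD0003W in csn12. They ranged over -0.50 to 0.0070 for YNCG0027W in YPR045C. In ist3 they ranged over -0.017 to 0.44 for YNCB0011C, -0.57 to 0.025 for YNCA0006C, -0.96 to 0.21 for YNCB0005C, -0.51 to 0.13 for TRR4 and -0.52 to 0.13 for YNCD0003W. In csn9 they ranged over -0.80 to 0.36 for SUF10, -0.85 to 0.32 for YNCD0003W and -0.64 to 0.19 for YNCF0009C, and in pci8 over -0.82 to 0.19 for SUF10. The cause was not tested. Over all other settings than leaving out an array or a time point, 893 of 1029 named values kept direction and call. Groups of 1 pair borrow their spread from the time points at 16 °C, the number of arrays limits precision, and signal over background is unknown.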
